A study of Mus musculus with 16 samples.

Results

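The genes described here encode a carrier of retinol, enzymes that convert retinol and retinal, make retinoic acid or break it down, and its receptors. Chosen by name for these functions, with that of Aldh1a7 less clear, they are Rbp4, Rdh10, Dhrs3, Aldh1a1, Aldh1a7, Cyp26b1, Rara, Rarb and Rarg. They are 9 of the 20295 genes of the count table, and all 9 were among the 12786 genes that passed the filter on low counts. RNA-seq had been done on brown adipocytes differentiated in culture from a mouse preadipocyte line that the SV40 large T antigen keeps dividing, to ask whether the transcriptional response to lipolysis needs fatty acids to be activated or oxidized. Lipolysis was started with SR-3420, a ligand of ABHD5 that frees this protein to activate the lipase ATGL. Triacsin C (TC) blocks the long-chain acyl-CoA synthetases that activate fatty acids, and etomoxir (ETO) blocks CPT1, through which they enter mitochondria. The 16 samples, all taken on day 7 of differentiation, form 6 groups. Vehicle (n = 2) received vehicle only, SR-3420 (n = 2) received 10 µM SR-3420 for 3 h, TC (n = 3) had 5 µM triacsin C and ETO (n = 3) had 50 µM etomoxir, each from 1 h before the same 3 h period. TC+SR-3420 and ETO+SR-3420 (n = 3 each) had the inhibitor for 1 h and then 10 µM SR-3420 for 3 h. The samples carry replicate numbers 1 to 3, of which Vehicle has 2 and 3 and SR-3420 has 1 and 3. All samples come from 1 immortalized line without the other cells of brown fat, and the study's methods describe independent experiments. Total counts per sample ran from 9452861 to 25670624, with a median of 13602886.

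Retinol circulates bound to the carrier RBP4 and inside cells is oxidized reversibly to retinal, which aldehyde dehydrogenases oxidize irreversibly to retinoic acid. Retinoic acid binds the receptors RARα, RARβ and RARγ, which pair with RXRs on DNA at repeats of a short half-site, and enzymes of the CYP26 family hydroxylate it for removal. Adipose tissue stores retinol as esters and secretes RBP4, and in brown adipocytes retinoic acid is known as an inducer of Ucp1.

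The label of the cells was compared with lists of marker genes. All 6 genes on the adipocyte list were in the table, and their summed level was 14388 and 13072 CPM (counts-per-million values after TMM normalization) in Vehicle, 14472, 15599 and 14986 in TC and 13794, 12845 and 13992 in ETO. With SR-3420 the sums were 10664 and 9631 CPM without an inhibitor, 5804, 5774 and 6129 with triacsin C and 7733, 5456 and 9388 with etomoxir. Every sample with SR-3420 had a lower sum than every sample without it. Fabp4 was the most abundant gene of this list, with a mean of 5831 CPM against 2065 for Adipoq, the next. The directions of its single genes are not given. The 8 genes of the brown adipocyte list, led by Cox8b, summed to 272 and 205 CPM in Vehicle, 199, 273 and 243 in TC and 225, 234 and 215 in ETO. With SR-3420 they summed to 221 and 196 CPM alone, 106, 121 and 106 with triacsin C and 141, 129 and 186 with etomoxir. These sums were lower with SR-3420 under either inhibitor, while SR-3420 alone overlapped with Vehicle. Cox8b weighed most in them, with a mean of 85.1 CPM against 45.5 for Ppargc1a, the next gene of the list. Apart from Ucp1, the directions of its single genes are not given. Of the defining brown genes, Ucp1 had 5 to 57 counts in a sample and Dio2 had 0 to 2, so both were low in these cells. Mean Ucp1 did not follow the sum and was higher with SR-3420. It stood at 2.26 CPM in SR-3420 against 1.22 in Vehicle and 2.87 in ETO+SR-3420 against 1.29 in ETO, both without overlap. The TC+SR-3420 samples (mean 3.20 CPM) overlapped with TC (1.85). The 6 preadipocyte or fibroblast genes, led by Col1a1, summed to 1349 and 1108 CPM in Vehicle, 1933, 1767 and 1429 in TC and 1717, 1189 and 717 in ETO. Their sums with SR-3420 were 3321 and 2279 CPM alone, 3856, 3151 and 2419 with triacsin C and 3922, 2734 and 1781 with etomoxir. These sums were higher with SR-3420 than in the matching group without it, again without overlap. They mostly follow Col1a1, with a mean of 1978 CPM against 64.3 for Thy1, the next gene of the list. The directions of the other genes on it are not given. Markers of other cell types were low, with sums of 4.33 to 18.4 CPM over 5 macrophage and leukocyte genes, led by Cd68, and 0.860 to 3.58 CPM over 4 endothelial genes, led by Kdr. The 4 muscle genes, led by Acta1, summed to 2.65 to 12.4 CPM and the 3 hepatocyte genes, led by Apoa1, to 2.06 to 5.01 CPM, with Ttr at 0 in all 16 samples. The macrophage and leukocyte sum was highest in TC, with 16.6, 18.4 and 17.2 CPM against 6.51 and 4.33 in Vehicle and at most 10.3 in the other groups. It mostly follows Cd68, with a mean of 7.45 CPM against 1.18 for Csf1r, the next gene of the list. Its part in the changes with triacsin C was not tested. Under both inhibitors the endothelial sums were higher with SR-3420 and the hepatocyte sums lower, without overlap. The adipocyte and fibroblast sums moved with SR-3420 as some of the retinoid genes did, and their part in the results was not tested. For every gene, fewer cells of a type and less RNA per cell cannot be told apart in these samples.

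Per kilobase of counted length, Rbp4 and Aldh1a7 had the highest mean levels of the 9 genes over the 16 samples, 35.9 and 35.5 CPM per kb. This order differed between groups, as Aldh1a7 stood at 46.1 and Rbp4 at 41.6 in Vehicle, while in SR-3420 Rbp4 stood at 54.5, Dhrs3 at 38.6, Rara at 37.4 and Aldh1a7 at 25.8. Over all samples Dhrs3 followed at 28.7 CPM per kb, Rara at 23.3, Rarg at 15.2 and Rdh10 at 12.3. Aldh1a1 had 5.09 CPM per kb, Cyp26b1 2.52 and Rarb 0.239. Among the 12786 genes tested, Rbp4 stood at percentile 80.4 of the level per length, Cyp26b1 at 21.9 and Rarb at 3.94. All 3 receptors of retinoic acid were thus represented, with Rara and Rarg far above Rarb. The plot of all 9 genes by sample shows that Rdh10 and Aldh1a7 separate the samples with SR-3420 from those without it. For Dhrs3 and Rarb each group overlaps with the next in the order of means, though not with every other group.

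**Figure D1:**
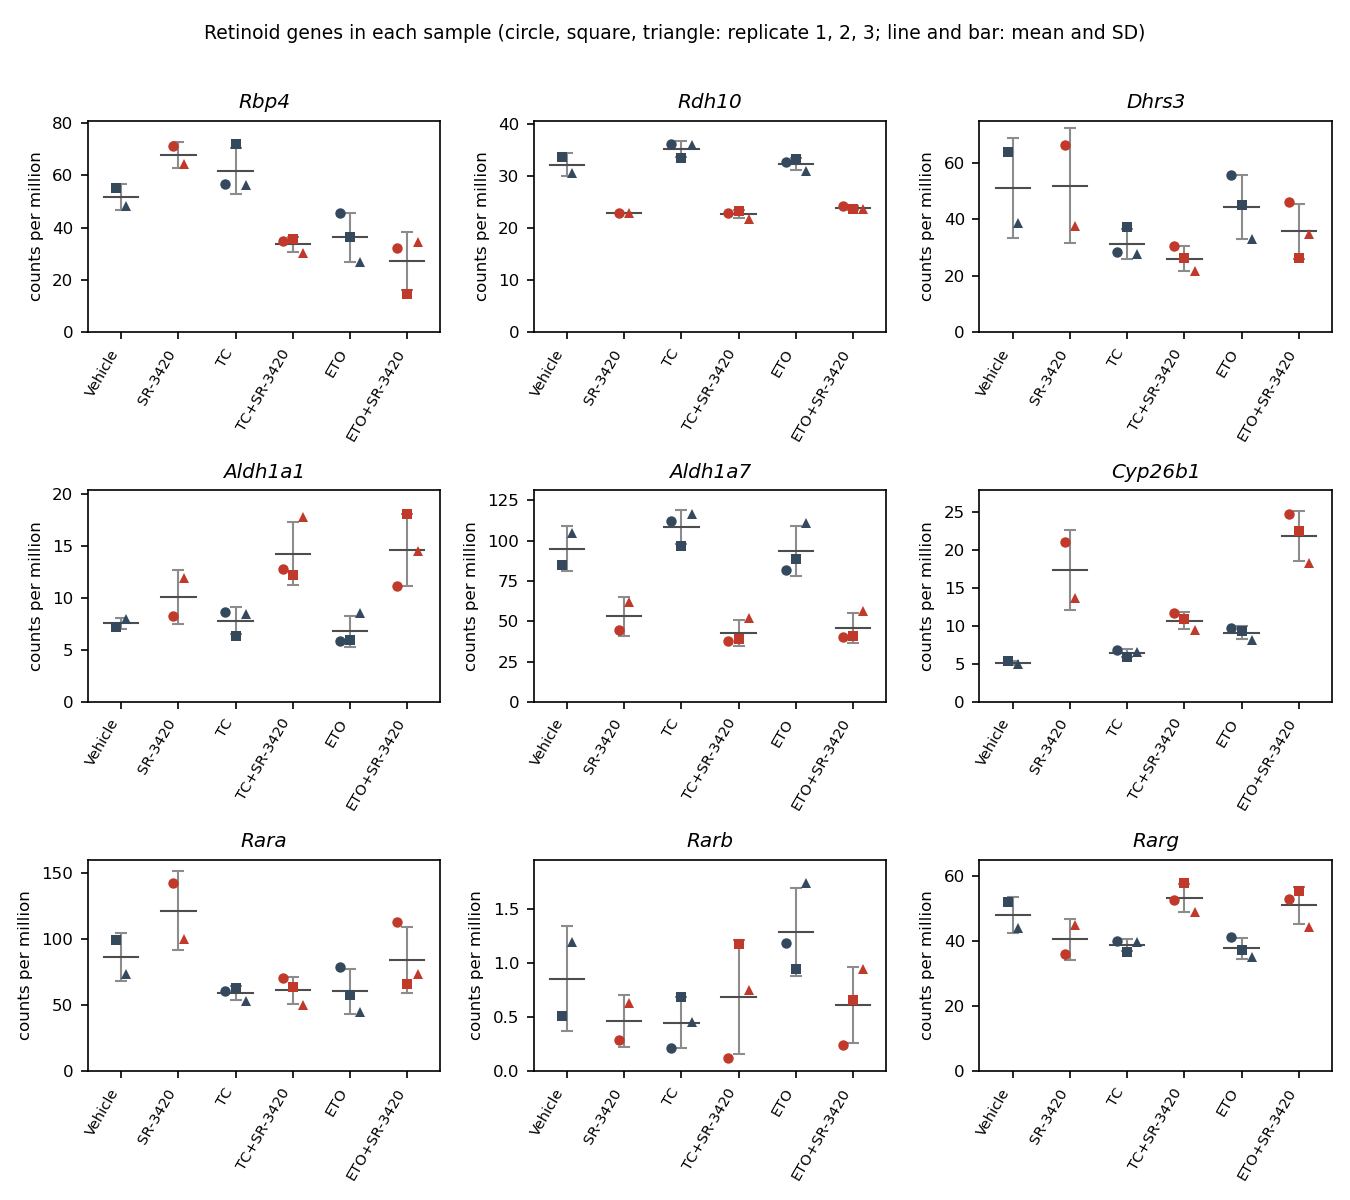
CPM (vertical axis, from 0) of each of the 9 genes in the 6 groups (horizontal axis); circles, squares and triangles are replicates 1, 2 and 3, red marks samples with SR-3420, and lines and bars are the mean and SD. Aldh1a7 lies between 37.5 and 61.8 CPM in the 8 samples with SR-3420 and between 81.5 and 117 CPM in the 8 without it.

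Rbp4 (NM_001159487, mm9 chr19:38191110-38199811, minus strand) encodes the carrier of retinol in blood, and its transcript stood at 55.3 and 48.0 CPM in Vehicle, 56.8, 71.9 and 56.1 in TC and 45.5, 36.6 and 26.8 in ETO. Its level was 71.2 and 64.3 CPM in SR-3420, 34.8, 35.7 and 30.1 in TC+SR-3420 and 32.4, 14.6 and 34.7 in ETO+SR-3420. The TC+SR-3420 samples all lay below the TC samples and the SR-3420 samples above the Vehicle samples, while ETO and ETO+SR-3420 overlapped. In order of mean CPM the groups ran SR-3420, TC, Vehicle, ETO, TC+SR-3420 and ETO+SR-3420, where SR-3420 overlapped with TC, ETO with TC+SR-3420 and TC+SR-3420 with ETO+SR-3420. The log2 fold change of SR-3420 against vehicle was 0.39 (95% CI -0.31 to 1.09), which edgeR's quasi-likelihood test did not call at the threshold of 0.05 (p adjusted over 12786 genes by Benjamini-Hochberg = 0.539). Under triacsin C, Rbp4 fell with SR-3420 in 3 of 3 samples, with a log2 fold change of -0.88 ± 0.27 (SE; adjusted p = 0.0207) in edgeR. This call was lost without TC replicate 2 (adjusted p = 0.0822), TC+SR-3420 replicate 2 (0.0518) or TC+SR-3420 replicate 3 (0.0708). Under etomoxir the log2 fold change was -0.41 (CI -0.99 to 0.16, edgeR adjusted p = 0.290). The response under triacsin C differed from that without an inhibitor by -1.27 on the log2 scale (CI -2.18 to -0.36), which did not pass in edgeR (adjusted p = 0.139).

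Rbp4 lies tail to tail with Ffar4, a receptor gene for long-chain fatty acids, with 2356 bases between the 2 genes. Ffar4 was picked as this neighbour and not by the rule for named genes, and its values were known when it was picked. It had 42.1 and 34.2 CPM in Vehicle, 140.1 and 98.8 in SR-3420, 59.4, 87.3 and 70.3 in TC and 15.6, 13.6 and 13.6 in TC+SR-3420, and 33.4, 26.1 and 24.7 in ETO and 37.5, 16.3 and 48.2 in ETO+SR-3420. Both genes were thus higher in SR-3420 than in Vehicle and lower in TC+SR-3420 than in TC in every sample. Under etomoxir the groups overlapped for both, with log2 fold changes of 0.28 (adjusted p = 0.547) for Ffar4 and -0.41 for Rbp4. On top of SR-3420, triacsin C gave -3.06 (adjusted p = 0.000604) for Ffar4 and etomoxir -1.81 (adjusted p = 0.141), both without overlap, and the latter was called by DESeq2 (0.000578) and with the replicate block (0.0198). For Ffar4 the edgeR log2 fold changes were 1.65 (adjusted p = 0.0177) for SR-3420 against vehicle and -2.34 (adjusted p = 0.000103) under triacsin C, and the difference between these responses was -3.99 (adjusted p = 0.00240). The call against vehicle was lost without Vehicle replicate 2 (0.0823), Vehicle replicate 3 (0.145) or SR-3420 replicate 1 (0.130) and in a fit of only the compared groups (0.0681), and the calls under triacsin C and of the difference were kept in each fit without 1 sample. Whether reads of one gene were counted on the other was not tested.

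Rdh10 (NM_133832, mm9 chr1:16095963-16122631, plus strand) encodes the retinol dehydrogenase that oxidizes retinol to retinal. It had 33.7 and 30.6 CPM in Vehicle, 36.1, 33.4 and 35.9 in TC and 32.7, 33.2 and 30.9 in ETO. With SR-3420 it had 22.9 and 22.9 CPM in SR-3420, 22.9, 23.3 and 21.8 in TC+SR-3420 and 24.3, 23.7 and 23.7 in ETO+SR-3420. All 8 samples with SR-3420 lay between 21.8 and 24.3 CPM and all 8 samples without it between 30.6 and 36.1, so that no group with SR-3420 overlapped with one without it. Within each of these sets the neighbouring groups were close, and TC stood highest at 35.1 ± 1.49 CPM (mean ± SD, n = 3). Rdh10 fell with SR-3420 in each background. Its log2 fold change was -0.49 ± 0.12 (SE; adjusted p = 0.0271) against vehicle, -0.63 ± 0.10 (SE; adjusted p = 0.000299) under triacsin C and -0.43 ± 0.10 (SE; adjusted p = 0.00619) under etomoxir in edgeR. The call against vehicle rested on each of the 4 samples, with an adjusted p of 0.167 without Vehicle replicate 2, 0.0789 without Vehicle replicate 3, 0.137 without SR-3420 replicate 1 and 0.101 without SR-3420 replicate 3. It was also lost without the filter on low counts (0.0950) and in a fit of only the compared groups (0.385), which under etomoxir gave 0.0933. The responses under triacsin C and without an inhibitor differed by -0.14 (CI -0.48 to 0.19, edgeR adjusted p = 0.644), and those under etomoxir and without an inhibitor by 0.06 (CI -0.28 to 0.39, 0.988).

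Dhrs3 (NM_001172424, mm9 chr4:144482730-144517548, plus strand) encodes a short-chain reductase that turns retinal back into retinol and works in a complex with RDH10. Its samples held 63.8 and 38.6 CPM in Vehicle, 28.5, 37.3 and 27.8 in TC and 55.6, 45.1 and 33.0 in ETO. With SR-3420 they held 66.5 and 37.5 CPM in SR-3420, 30.5, 26.4 and 21.6 in TC+SR-3420 and 46.1, 26.5 and 34.9 in ETO+SR-3420. The samples numbered 3 were the lowest of their group in 5 of 6 groups. This was not particular to Dhrs3, as it held in 5 of 6 groups for Cyp26b1, Rbp4 and Rara and in 4 of 6 for Rdh10 and Rarg. For Aldh1a1 and Rarb they were the highest in 4 of 6. In the order of mean CPM every Dhrs3 group overlapped with the next, from SR-3420 and Vehicle at the top to TC and TC+SR-3420 at the bottom. TC lay below Vehicle, and TC+SR-3420 below SR-3420, without overlap. Without a replicate block edgeR called Dhrs3 in no comparison, and with the block it called triacsin C against vehicle (0.0130) and triacsin C added to SR-3420 (0.00688). SR-3420 against vehicle gave a log2 fold change of 0.02 (CI -0.72 to 0.76, adjusted p = 0.981), and the responses under triacsin C and etomoxir were -0.25 (adjusted p = 0.516) and -0.31 (adjusted p = 0.456).

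Aldh1a1 (NM_013467, mm9 chr19:20676472-20717952, plus strand) and Aldh1a7 (NM_011921, mm9 chr19:20767443-20802046, minus strand) are neighbours that face each other with 49490 bases between their ends. ALDH1A1 oxidizes retinal to retinoic acid, while the product of its close relative Aldh1a7 is an aldehyde dehydrogenase of the same family whose part in retinoid metabolism is less clear. Their annotated coding sequences are 1506 bases each and hold 1380 identical bases (91.6%), with a longest identical run of 100 bases, and 151 of the 1457 stretches of 50 bases in Aldh1a1 (10.4%) also occur in Aldh1a7. Reads from such stretches could be counted on the wrong gene or dropped, and their share was not measured. The stretches just before the 2 starts are also alike. They are shown because transcripts of the pair moved in opposite directions. The alignment has 107 columns, of which 102 are identical (95.3%) and 2 hold a gap. Capitals mark the bases that differ between the genes or face a gap. The first stretch is mm9 chr19:20676352-20676457 on the plus strand, from 120 to 15 bases before the Aldh1a1 start, and the other is mm9 chr19:20802047-20802152 on the minus strand, from 106 to 1 bases before the Aldh1a7 start. Both are read 5′ to 3′ in the direction of transcription.
Aldh1a1: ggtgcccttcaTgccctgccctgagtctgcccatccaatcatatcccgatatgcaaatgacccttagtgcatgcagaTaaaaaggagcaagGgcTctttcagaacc
Aldh1a7: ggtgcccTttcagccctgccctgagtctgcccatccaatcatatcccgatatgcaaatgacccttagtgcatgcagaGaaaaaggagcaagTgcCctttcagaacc

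The Aldh1a1 samples held 7.17 and 7.93 CPM in Vehicle, 8.60, 6.36 and 8.50 in TC and 5.86, 6.00 and 8.53 in ETO. With SR-3420 they held 8.25 and 11.9 CPM in SR-3420, 12.7, 12.2 and 17.7 in TC+SR-3420 and 11.2, 18.1 and 14.5 in ETO+SR-3420. The SR-3420 samples lay above the Vehicle samples, and with either inhibitor the samples with SR-3420 lay above those without it. By mean CPM the order was ETO+SR-3420, TC+SR-3420, SR-3420, TC, Vehicle and ETO, with an empty interval only between TC+SR-3420 and SR-3420. Against vehicle the log2 fold change was 0.42 (CI -0.21 to 1.05, edgeR adjusted p = 0.453). Aldh1a1 rose 1.82-fold under triacsin C (log2 SE 0.24, edgeR adjusted p = 0.0126) and 2.14-fold under etomoxir (log2 SE 0.24, 0.00480). The call under triacsin C was lost without TC replicate 2 (adjusted p = 0.0620) or TC+SR-3420 replicate 3 (0.0608). The difference of each response from that without an inhibitor did not pass, at 0.45 (adjusted p = 0.564) for triacsin C and 0.68 (adjusted p = 0.988) for etomoxir.

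Aldh1a7 was at 85.1 and 105 CPM in Vehicle, 112, 96.7 and 117 in TC and 81.5, 88.5 and 111 in ETO. With SR-3420 it was at 44.6 and 61.8 CPM in SR-3420, 37.5, 39.2 and 52.1 in TC+SR-3420 and 40.3, 40.6 and 56.5 in ETO+SR-3420. No sample with SR-3420 reached the lowest sample without it, and the sample numbered 3 was the highest of its group in 6 of 6 groups. By mean CPM the groups without SR-3420 ran TC, Vehicle and ETO and those with it SR-3420, ETO+SR-3420 and TC+SR-3420, each overlapping with the next except ETO and SR-3420. Aldh1a7 fell with SR-3420, with log2 fold changes of -0.84 ± 0.24 (SE; adjusted p = 0.0477) against vehicle, -1.34 ± 0.20 (SE; adjusted p = 0.000174) under triacsin C and -1.03 ± 0.19 (SE; adjusted p = 0.00191) under etomoxir in edgeR. The call against vehicle was lost in each fit without 1 of its samples, with an adjusted p of 0.0924 without Vehicle replicate 2, 0.272 without Vehicle replicate 3, 0.333 without SR-3420 replicate 1 and 0.0594 without SR-3420 replicate 3. It was lost as well without the filter on low counts (0.0854) and in a fit of only the compared groups (0.225). The calls under the inhibitors were kept in the 6 fits each that left out 1 sample (adjusted p 0.000334 to 0.00287 and 0.00114 to 0.0137).

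Because the 2 genes moved apart, the share of Aldh1a1 in the pair, taken per kilobase, was computed within each sample, where library size cancels. It was 7.86 and 7.12% in Vehicle, 7.22, 6.25 and 6.87% in TC and 6.79, 6.43 and 7.24% in ETO. With SR-3420 it was 15.8 and 16.4% alone, 25.6, 24.0 and 25.7% after triacsin C and 21.9, 31.1 and 20.6% after etomoxir. Every sample with SR-3420 stood above every sample without it, and both inhibitor groups with SR-3420 stood above SR-3420 alone. The group means were 7.49% ± 0.529 (SD, n = 2) in Vehicle and 16.1% ± 0.418 (n = 2) in SR-3420, 6.78% ± 0.491 and 25.1% ± 0.934 (n = 3 each) in TC and TC+SR-3420, and 6.82% ± 0.405 and 24.6% ± 5.73 (n = 3 each) in ETO and ETO+SR-3420. The share is a description with no test.

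**Figure D2:**
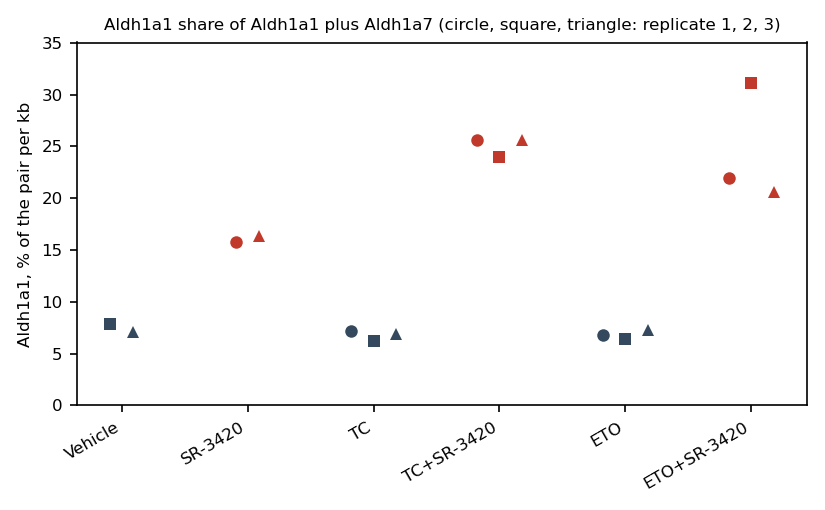
Aldh1a1 as a percentage of Aldh1a1 plus Aldh1a7 per kb (vertical axis) in the 16 samples of the 6 groups (horizontal axis), with circles, squares and triangles for replicates 1, 2 and 3 and red for samples with SR-3420. The 8 samples without SR-3420 lie between 6.25% and 7.86% and the 8 with it between 15.8% and 31.1%.

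Cyp26b1 (NM_001177713, mm9 chr6:84521408-84543902, minus strand) encodes a hydroxylase that removes retinoic acid, and it had 5.34 and 4.98 CPM in Vehicle, 6.88, 5.95 and 6.52 in TC and 9.81, 9.39 and 8.20 in ETO. With SR-3420 it had 21.1 and 13.6 CPM in SR-3420, 11.7, 11.0 and 9.48 in TC+SR-3420 and 24.8, 22.6 and 18.4 in ETO+SR-3420. Each group with SR-3420 lay above its matching group without it, and ETO also lay above Vehicle. The order by mean CPM was ETO+SR-3420, SR-3420, TC+SR-3420, ETO, TC and Vehicle. ETO+SR-3420 overlapped with SR-3420 and TC+SR-3420 with ETO, and the other neighbours were apart. SR-3420 against vehicle raised Cyp26b1 3.36-fold, a log2 fold change of 1.75 ± 0.23 (SE, CI 1.25 to 2.25, edgeR adjusted p = 0.000639). Under triacsin C the rise was 0.74 ± 0.19 (SE; adjusted p = 0.00728) and under etomoxir 1.26 ± 0.18 (SE; adjusted p = 0.000303) on the log2 scale in edgeR. When Vehicle and SR-3420 samples were dropped singly, the adjusted p over the 4 fits ran from 0.000444 to 0.0150. A fit of only those 2 groups gave 1.72 with an adjusted p of 0.114.

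The response of Cyp26b1 under triacsin C differed from that without an inhibitor by -1.01 on the log2 scale (CI -1.64 to -0.38, edgeR adjusted p = 0.0915), which did not pass. Without SR-3420 replicate 3, the lower of the 2 samples, the difference was -1.29 and passed (adjusted p = 0.0467), and without SR-3420 replicate 1 it was smaller (-0.66, adjusted p = 0.441). Over the 10 fits without 1 sample it ran from -1.29 to -0.66 and passed in 1. With the replicate number as a block it passed (0.0213). The response under etomoxir differed from that without an inhibitor by -0.49 (CI -1.11 to 0.13, adjusted p = 0.988), and the responses under the 2 inhibitors by -0.53 (CI -1.08 to 0.03, 0.445).

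Among the receptors, Rara (NM_009024, mm9 chr11:98799010-98836256, plus strand) encodes RARα, and its samples held 99.3 and 73.7 CPM in Vehicle, 61.2, 63.0 and 53.1 in TC and 79.1, 57.8 and 45.1 in ETO. With SR-3420 they held 143 and 100.4 CPM in SR-3420, 70.4, 63.7 and 50.1 in TC+SR-3420 and 113, 66.3 and 74.1 in ETO+SR-3420. SR-3420 alone lay above Vehicle without overlap, while the other groups overlapped with their neighbours in the order Vehicle, ETO+SR-3420, TC+SR-3420, ETO and TC. Without a replicate block edgeR called Rara in no comparison, except for triacsin C added to SR-3420 without the filter on low counts (0.0454). With the block it called the response under etomoxir (0.49, adjusted p = 0.00978), triacsin C against vehicle (-0.67, adjusted p = 0.00529), triacsin C added to SR-3420 (-0.97, adjusted p = 0.00109) and etomoxir added to SR-3420 (-0.51, adjusted p = 0.0419). SR-3420 against vehicle gave a log2 fold change of 0.49 (CI -0.15 to 1.13, adjusted p = 0.374), the response under triacsin C was 0.06 (adjusted p = 0.874) and that under etomoxir 0.48 (adjusted p = 0.173).

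Rarg (NM_011244, mm9 chr15:102065369-102087953, minus strand) encodes RARγ and had 52.1 and 44.2 CPM in Vehicle, 40.2, 36.8 and 39.7 in TC and 41.3, 37.3 and 35.0 in ETO. With SR-3420 it had 36.2 and 45.1 CPM in SR-3420, 52.8, 57.9 and 49.2 in TC+SR-3420 and 53.1, 55.6 and 44.5 in ETO+SR-3420. The samples with an inhibitor and SR-3420 lay above those with the inhibitor alone, whereas SR-3420 alone overlapped with Vehicle. In the order of mean CPM, TC+SR-3420, ETO+SR-3420, Vehicle, SR-3420, TC and ETO, each group overlapped with the next. Rarg rose with SR-3420 by 0.46 ± 0.13 (SE; adjusted p = 0.0162) under triacsin C and 0.43 ± 0.13 (SE; adjusted p = 0.0309) under etomoxir on the log2 scale in edgeR, and against vehicle its log2 fold change was -0.24 (adjusted p = 0.424). The call under triacsin C was lost without TC replicate 2 (0.0665). The call under etomoxir was lost without ETO replicate 2 (0.0908), ETO replicate 3 (0.0814), ETO+SR-3420 replicate 1 (0.0730) or ETO+SR-3420 replicate 2 (0.121). It was lost too without the filter on low counts (0.0576) and in a fit of only the compared groups (0.146). The response under triacsin C differed from that without an inhibitor by 0.70 (CI 0.25 to 1.15, edgeR adjusted p = 0.101), and that under etomoxir by 0.67 (CI 0.22 to 1.12, adjusted p = 0.988). Neither difference passed, and with the replicate block the first did (0.0401).

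Rarb (NM_001289761, mm9 chr14:17263354-17914845, minus strand) encodes RARβ, whose gene is a known target of retinoic acid through a repeat near a start. Its counts were 7 and 13 in Vehicle, 2, 10 and 6 in TC and 18, 12 and 21 in ETO. With SR-3420 they were 5 and 10 alone, 2, 14 and 8 after triacsin C and 6, 9 and 16 after etomoxir. Of the matching groups only ETO and ETO+SR-3420 did not overlap in CPM, and edgeR called no comparison, while with the replicate block it called the response under etomoxir (-1.18, adjusted p = 0.0496). The interval of SR-3420 against vehicle, -2.65 to 0.96 on the log2 scale around -0.84, is wide. The DNA before a start of Rarb was searched, with the promoters of the other members, for direct repeats of the half-site AGGTCA, its variant GGGTCA, and the related forms AGTTCA and also GGTTCA, in any pairing with 1, 2 or 5 bases between the half-sites, on both strands. The promoters came from RefSeq (GRCm38.p6; 250 bases before to 50 after each start) and covered 8 of the 9 genes with 16 promoters, with Rdh10 not among them. A repeat was found in 1 gene, Rarb, and at least 1 single half-site in 7 of the 16 promoters. Over all 32851 promoters, 32 (0.0974%) held a repeat spaced by 5, 88 (0.268%) one spaced by 2 and 73 (0.222%) one spaced by 1, and 14358 (43.7%) held a single half-site. The Rarb repeat is printed because it is the element these receptors are known to bind, in capitals, with 20 bases on each side. It lies 53 to 37 bases before the RefSeq start searched, and the stretch printed with its flanks is mm9 chr14:17408007-17408063 on the minus strand. This start lies within the span of the counted transcript given above and is not its first base, and a match of letters is no measurement of binding.
Rarb: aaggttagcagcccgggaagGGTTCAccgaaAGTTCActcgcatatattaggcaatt

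Counted over the 9 genes, SR-3420 against vehicle called 1 gene higher (Cyp26b1) and 2 lower (Rdh10 and Aldh1a7), where edgeR called 4.75% of the 12786 genes tested higher and 2.79% lower. The median log2 fold change was 0.02 over the 9 genes and 0.00 over all genes. Under triacsin C, 3 were higher (Cyp26b1, Aldh1a1 and Rarg) and 3 lower (Rdh10, Aldh1a7 and Rbp4), beside 17.3% of all genes higher and 19.7% lower, with medians of 0.06 and 0.02. Under etomoxir, 3 were higher (Cyp26b1, Aldh1a1 and Rarg) and 2 lower (Rdh10 and Aldh1a7), beside 12.5% higher and 12.8% lower of all genes, with medians of -0.31 and 0.01. With 9 genes, a share of 1 gene in a direction is far coarser than these background shares, and under the inhibitors many of all genes tested were called. The 3 responses share no samples with each other but come from 1 fit. Deviations of samples with the same replicate number also correlated between groups, with a mean of 0.41 against -0.20 for other pairs. The plot of the responses to SR-3420 sets Cyp26b1 above 0 and Rdh10 and Aldh1a7 below 0 in each background.

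**Figure D3:**
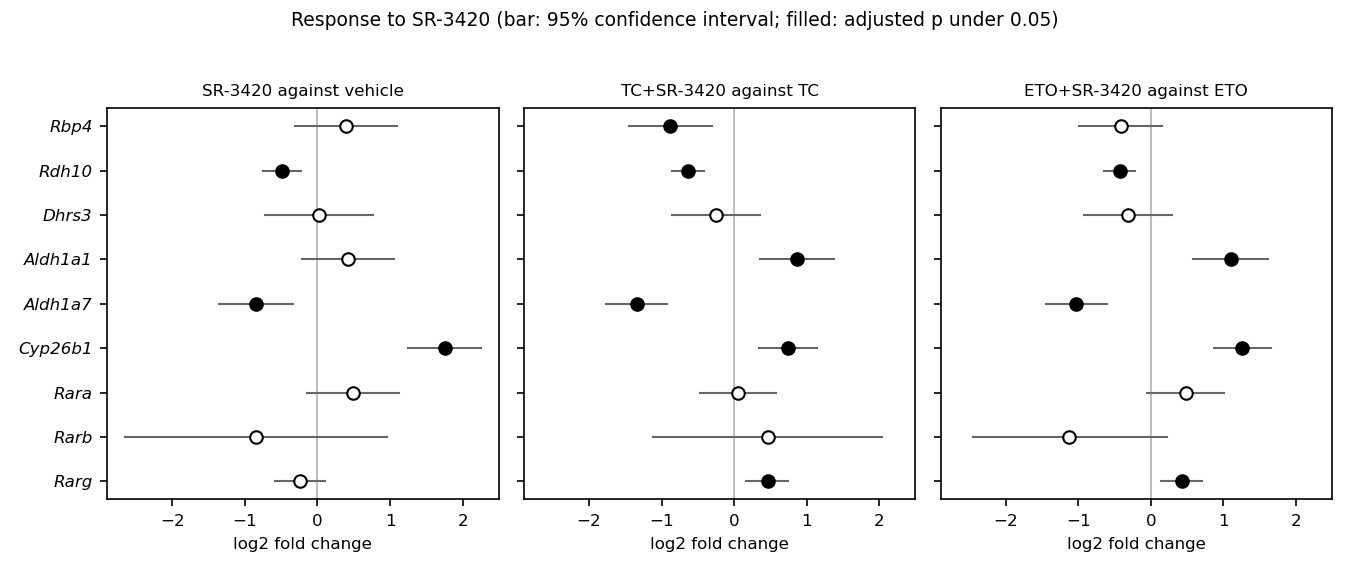
Log2 fold change with SR-3420 (horizontal axis) for the 9 genes (vertical axis) without an inhibitor, under triacsin C and under etomoxir; points are edgeR estimates, bars 95% confidence intervals, and filled points have an adjusted p under 0.05. Cyp26b1 is at 1.75, 0.74 and 1.26, Aldh1a7 at -0.84, -1.34 and -1.03.

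The inhibitors alone were compared with vehicle, which these comparisons share with each other and with that of SR-3420 against vehicle. Triacsin C called 0 of the 9 genes in edgeR, with 1 gene (Dhrs3) at an unadjusted p under 0.05, 0 called by DESeq2 and 2 with the replicate block (Dhrs3 0.0130 and Rara 0.00529). Of all genes, 4.77% were called higher and 6.94% lower without the block, and 24% were called with it. An unadjusted p under 0.05 was found for 3103 of the 12786 genes. Dhrs3 lay lower in 3 of 3 TC samples, with a log2 fold change of -0.72 (CI -1.39 to -0.04, edgeR adjusted p = 0.176). Etomoxir called 0 of the 9 in edgeR, with 2 genes (Cyp26b1 and Rarg) at an unadjusted p under 0.05 and 0 called by DESeq2. Here 0.0156% of all genes were called higher and 0.00782% lower, so that the comparison held few calls of any kind. An unadjusted p under 0.05 was found for 283 of the 12786 genes. Cyp26b1 was higher in 3 of 3 ETO samples, 0.82 on the log2 scale (CI 0.36 to 1.28, edgeR adjusted p = 0.888), and did not pass. Rarg was lower in 3 of 3 ETO samples, at -0.34 (CI -0.66 to -0.03, adjusted p = 1.00).

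The inhibitors were also compared on top of SR-3420, with the SR-3420 samples shared. Adding triacsin C called 0 of the 9 genes in edgeR, where 1.02% of all genes were called higher and 3.55% lower. An unadjusted p under 0.05 was found for 5 of the 9 and for 2494 of the 12786 genes. DESeq2 called 4, beside 10.3% of all genes. These 4, Rara (-0.98, edgeR adjusted p = 0.0554), Cyp26b1 (-0.70, 0.0640), Rbp4 (-1.01, 0.0683) and Dhrs3 (-0.99, 0.0922), were all lower in 3 of 3 TC+SR-3420 samples than in both SR-3420 samples. In edgeR, Rara was called without the filter on low counts (0.0454) and Cyp26b1 without SR-3420 replicate 3 (0.0264). Over the 5 fits without 1 sample Cyp26b1 ran from -0.98 to -0.35 with an adjusted p of 0.0264 to 0.756, and it was nearest to 0 without SR-3420 replicate 1. Rara ran from -1.22 to -0.71 and passed in 0 of the 5 (0.0581 to 0.537). All 4 were called with the replicate number as a block (Rara 0.00109, Cyp26b1 0.00645, Rbp4 0.0206, Dhrs3 0.00688), which called 23.5% of all genes. Rarg, the fifth gene, was higher in 3 of 3 samples (0.39, adjusted p = 0.167). Adding etomoxir called 0 of the 9 in edgeR, with 0% of all genes called higher and 0.00782% lower, 2 genes at an unadjusted p under 0.05 (Rbp4 and Rarg), 1 called by DESeq2 (Rbp4) and 2 with the replicate block (Rbp4 and Rara). Of all genes here, DESeq2 called 0.750%, the block called 14.4%, and 1279 of the 12786 had an unadjusted p under 0.05. Rbp4 was lower in 3 of 3 ETO+SR-3420 samples, with a log2 fold change of -1.31 (CI -1.94 to -0.68, edgeR adjusted p = 0.200, DESeq2 adjusted p = 0.0141, edgeR with the block 0.0269). Rarg stood at 0.33 (CI 0.01 to 0.65, edgeR adjusted p = 0.486).

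**Figure D4:**
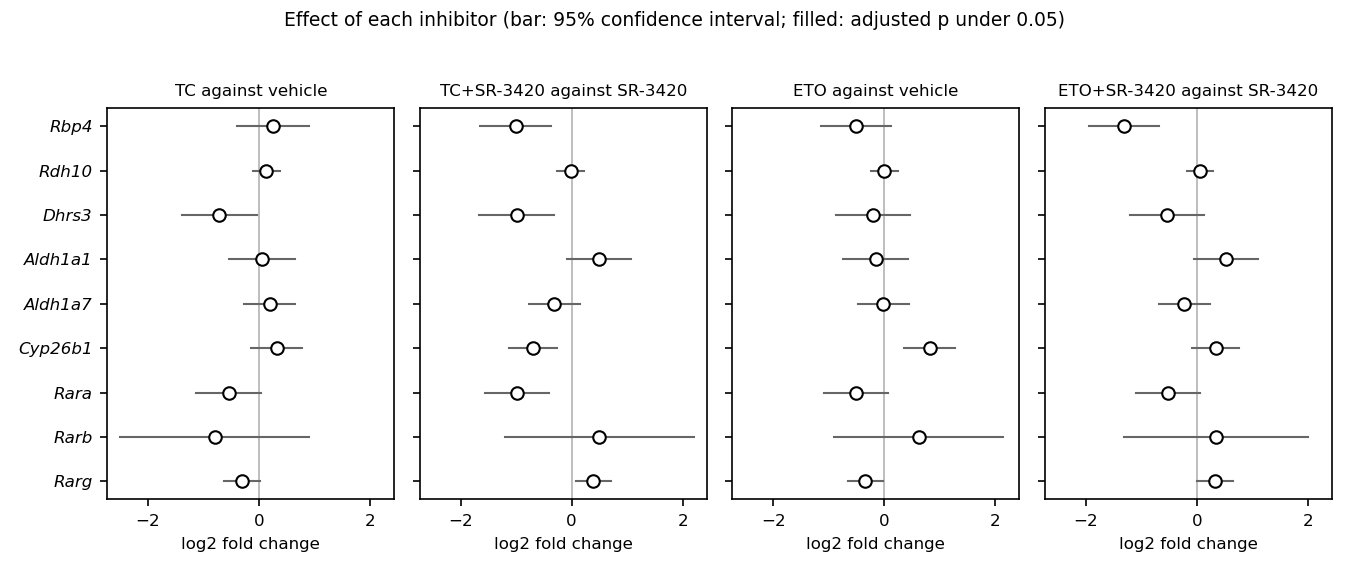
Log2 fold change with each inhibitor (horizontal axis) for the 9 genes (vertical axis), against vehicle and on top of SR-3420; points are edgeR estimates, bars 95% confidence intervals, and open points have an adjusted p of 0.05 or more. Rbp4 lies at -1.01 and -1.31 when triacsin C or etomoxir is added to SR-3420.

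The differences between the responses to SR-3420 were tested as interactions. Between triacsin C and no inhibitor, edgeR called 0 of the 9 genes, with 3 at an unadjusted p under 0.05 (Cyp26b1, Rbp4 and Rarg) and 1 called by DESeq2 (Rarg, adjusted p = 0.0131). With the replicate block edgeR called 2 (Cyp26b1 and Rarg). Of all genes, edgeR called 1.24% higher and 1.27% lower, DESeq2 called 6.25% and the block 13.1%. An unadjusted p under 0.05 was found for 2130 of the 12786 genes. A fit of only the compared groups called Rbp4 (0.0268), beside 2.14% of all genes. Between etomoxir and no inhibitor, edgeR called 0 of the 9 and 0% of all genes in either direction, and DESeq2 called 0 of the 9. An unadjusted p under 0.05 was found for 1 of the 9 (Rarg) and for 307 of the 12786 genes. Between triacsin C and etomoxir, edgeR called 0 of the 9, beside 1.52% of all genes higher and 0.774% lower, and DESeq2 called 0. An unadjusted p under 0.05 was found for 0 of the 9 and for 1596 of the 12786 genes. These 3 tests share groups.

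The other genes of the pathway were taken from lists of 61 genes, all found in the table, of which 39 were tested. The 22 below the filter on low counts included the ester-forming enzyme Lrat with at most 4 counts in a sample, the hydroxylase Cyp26a1 with at most 9 and the carrier Rbp7 with at most 10. With SR-3420 against vehicle, 1 of the 39 genes was higher and 4 were lower, beside 4.75% and 2.79% of all genes, and the median log2 fold change was 0.01 beside 0.00 for all genes. Under triacsin C, 7 were higher and 14 lower, beside 17.3% and 19.7% of all genes (medians -0.05 and 0.02). Under etomoxir 4 were higher and 13 lower, beside 12.5% and 12.8% (medians -0.28 and 0.01). The plot of the lists shows calls in both directions for retinal oxidation in each background, and under the inhibitors also for the oxidoreductases, the carriers and the genes responsive to retinoic acid, as well as for the RXRs and coregulators under triacsin C.

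**Figure D5:**
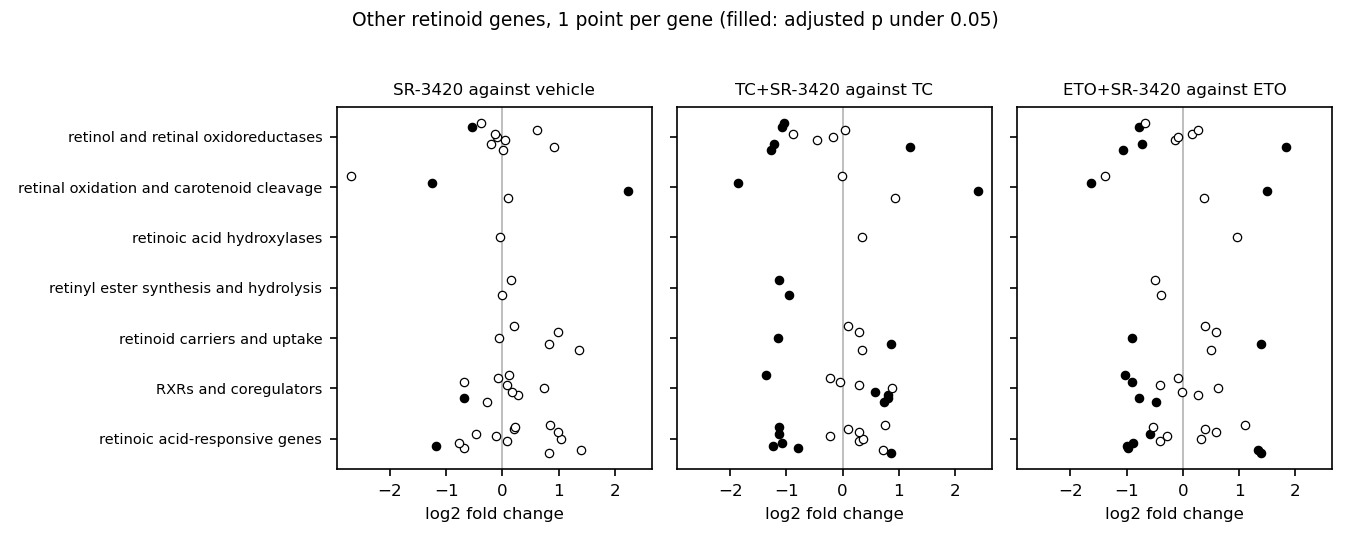
Log2 fold change with SR-3420 (horizontal axis) of the other retinoid genes tested, grouped by list (vertical axis), without an inhibitor, under triacsin C and under etomoxir; each point is a gene, shown once in each list that holds it, and filled points have an adjusted p under 0.05. In the list of retinal oxidation, Aox1 is at -1.26, -1.86 and -1.64.

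Aox1 encodes an aldehyde oxidase that can oxidize retinal, and it had 66.6 and 60.8 CPM in Vehicle, 77.6, 67.2 and 80.6 in TC and 79.4, 77.7 and 73.6 in ETO. With SR-3420 it had 27.0 and 26.3 CPM in SR-3420, 19.6, 21.8 and 20.6 in TC+SR-3420 and 24.5, 21.8 and 27.6 in ETO+SR-3420. All 8 samples with SR-3420 lay below 28 CPM and all 8 without it above 60. Its log2 fold change was -1.26 ± 0.14 (SE; adjusted p = 0.000233) against vehicle, -1.86 ± 0.12 (SE; adjusted p = 5.17e-07) under triacsin C and -1.64 ± 0.12 (SE; adjusted p = 1.93e-06) under etomoxir in edgeR. In the fits without 1 sample the adjusted p stayed at 0.00286 to 0.00441, 5.50e-06 to 1.08e-05 and 4.95e-06 to 2.59e-05, and only the fit of Vehicle and SR-3420 alone lost the first call (0.0854). Aldh1a3, a retinal dehydrogenase, moved the other way from a low base, with 9 and 3 counts in Vehicle, 10, 7 and 11 in TC and 15, 13 and 8 in ETO. It had 38 and 37 counts in SR-3420, 60, 45 and 50 in TC+SR-3420 and 52, 36 and 51 in ETO+SR-3420. Each group with SR-3420 held more than every group without it. Its fold change was 4.69 against vehicle (edgeR adjusted p = 0.00587), 5.27 under triacsin C (8.56e-05) and 2.84 under etomoxir (0.00315). In the 4 fits without 1 sample the log2 fold change against vehicle ran from 1.79 to 3.01. The first call was lost without Vehicle replicate 3 (0.0750) and in the fit of only its groups (0.155).

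The other genes named by the rule for SR-3420 against vehicle were all lower. Hoxa4, a Hox gene responsive to retinoic acid, had a log2 fold change of -1.18 (adjusted p = 0.0223) in edgeR, the coactivator gene Ncoa2 had -0.69 (adjusted p = 0.00541) and the retinol dehydrogenase gene Rdh14 -0.55 (adjusted p = 0.0407). Hoxa4 and Rdh14 lost their calls in each of the 4 fits without 1 sample. Without Vehicle replicate 2, Vehicle replicate 3, SR-3420 replicate 1 and SR-3420 replicate 3 the adjusted p of Hoxa4 was 0.0713, 0.140, 0.112 and 0.110 and that of Rdh14 0.253, 0.0598, 0.115 and 0.171. Ncoa2 lost its call without Vehicle replicate 2 (0.0529) or SR-3420 replicate 3 (0.0505). A fit of only Vehicle and SR-3420 called none of the 3 (Hoxa4 0.179, Ncoa2 0.225, Rdh14 0.354), and without the filter on low counts Rdh14 was not called (0.0845). Under triacsin C, Adh1, an alcohol dehydrogenase that accepts retinol, was lower at -1.27 (adjusted p = 0.000956), as were Hoxa4 at -1.23 (adjusted p = 0.00126) and the reductase gene Dhrs4 at -1.22 (adjusted p = 0.00140). Under etomoxir, Adh7, another alcohol dehydrogenase gene, rose by 1.83 (adjusted p = 0.00612), Crabp2, which carries retinoic acid to its receptors, by 1.39 (adjusted p = 0.00318) and Hic1 by 1.33 (adjusted p = 0.0112), while Adh1 was lower at -1.06 (adjusted p = 0.00493). Adh7 was at low counts, with 3 to 9 in an ETO sample and 24 to 38 in an ETO+SR-3420 sample. In a fit of only ETO and ETO+SR-3420, Adh7 (0.0505), Hic1 (0.0618) and Adh1 (0.0627) were not called. All of these separated the groups compared without overlap. The means of Adh7, Crabp2 and Hic1 were also higher with SR-3420 in the other backgrounds. Adh7 had 0.945 CPM in SR-3420 against 0.515 in Vehicle and 2.75 in TC+SR-3420 against 1.22 in TC. In the same order Crabp2 had 4.93 against 2.75 and 7.11 against 3.93, and Hic1 42.9 against 16.3 and 37.0 against 22.5. None of them was called against vehicle, and under triacsin C at most 6 genes were named.

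The RXRs are the partners of these receptors on DNA. Rxra had 551 and 375 CPM in Vehicle, 153, 178 and 144 in TC and 431, 379 and 272 in ETO. With SR-3420 it had 340.2 and 239 CPM in SR-3420, 171, 153 and 135 in TC+SR-3420 and 239.7, 161 and 176 in ETO+SR-3420. The TC and TC+SR-3420 samples and ETO+SR-3420 replicates 2 and 3 formed the 8 lowest. Triacsin C against vehicle lowered Rxra, with a log2 fold change of -1.55 ± 0.24 (SE; adjusted p = 0.000773) in edgeR, and SR-3420 lowered it under etomoxir (-0.91, adjusted p = 0.00821) but was not called against vehicle (-0.68, adjusted p = 0.150) or under triacsin C (-0.05, adjusted p = 0.874). The difference between the responses under triacsin C and etomoxir was 0.86 (CI 0.20 to 1.52, edgeR adjusted p = 0.212) and that between triacsin C and no inhibitor 0.63 (CI -0.11 to 1.37, 0.381). Between etomoxir and no inhibitor it was -0.23 (0.988). With the replicate block SR-3420 against vehicle (0.00838), etomoxir added to SR-3420 (0.0341) and the first of these differences (0.0154) were called. Adding triacsin C to SR-3420 gave -0.92 (adjusted p = 0.0447), a call lost without SR-3420 replicate 1 (0.508), TC+SR-3420 replicate 1 (0.0765), TC+SR-3420 replicate 2 (0.101) or TC+SR-3420 replicate 3 (0.160), with the size factors of DESeq2 (0.0504) and in a fit of only the compared groups (0.105), which also lost the call under etomoxir (0.0550). Rxrb was called in no comparison, with log2 fold changes of -0.08, -0.22 and -0.08 for the responses without an inhibitor, under triacsin C and under etomoxir.

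Rxrg had 22.4 and 19.2 CPM in Vehicle, 20.2, 20.4 and 20.3 in TC and 25.9, 24.9 and 18.2 in ETO. With SR-3420 it had 25.9 and 19.1 CPM in SR-3420, 8.26, 9.02 and 6.19 in TC+SR-3420 and 13.9, 7.96 and 11.8 in ETO+SR-3420. The TC+SR-3420 and ETO+SR-3420 samples lay below all others, and SR-3420 alone overlapped with Vehicle. Rxrg fell with SR-3420 under triacsin C (-1.37 ± 0.22, SE, adjusted p = 0.000398) and under etomoxir (-1.03 ± 0.22, SE, adjusted p = 0.00400) in edgeR and was not called against vehicle (0.11, adjusted p = 0.850). The response under triacsin C differed from that without an inhibitor by -1.49 (adjusted p = 0.0406), a call lost in 9 of the 10 fits without 1 sample, and that under etomoxir by -1.14 (adjusted p = 0.988). Adding triacsin C to SR-3420 gave -1.52 (adjusted p = 0.00405), lost without SR-3420 replicate 1 (0.0781) and in a fit of only the compared groups (0.0593; under etomoxir 0.0518), and adding etomoxir gave -0.99 (CI -1.51 to -0.48, adjusted p = 0.216), called with the block (0.0262) and by DESeq2 (0.0256).

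Triacsin C against vehicle called 1 of the 39 other retinoid genes higher and 5 lower, beside 4.77% and 6.94% of all genes, and the 5 were all on the list of RXRs and coregulators. Beside Rxra these were the coactivator genes Ncoa2 (-2.13, adjusted p = 2.43e-07) and Ncoa1 (a fold change of 0.250, adjusted p = 3.09e-06) and the corepressor genes Nrip1 (-1.39, adjusted p = 0.000117) and Ncor1 (-0.73, adjusted p = 0.00161), where the other values are edgeR log2 fold changes, all without overlap. Ncoa2 held 96.4 and 91.2 CPM in Vehicle and 23.3, 19.0 and 22.0 in TC, and Ncoa1 133 and 137 in Vehicle and 36.4, 31.5 and 33.2 in TC. The gene called higher, the retinol dehydrogenase gene Rdh11 (0.54, adjusted p = 0.00898), lost its call without Vehicle replicate 2 (0.0759) or Vehicle replicate 3 (0.0784), without the filter on low counts (0.0825) and in a fit of only the compared groups (0.0740). Adding triacsin C to SR-3420 called 1 of the 39 higher, Rdh11 (0.48, adjusted p = 0.0363, named after its value was seen), and 7 lower, beside 1.02% and 3.55% of all genes. The call of Rdh11 was kept in 1 of the 5 fits without 1 sample (0.0442 to 0.435), and it was lost without the filter on low counts (0.126) and in a fit of only the compared groups (0.238). By size the 7 began with Rxrg, Lipe, which encodes hormone-sensitive lipase, an enzyme that also cleaves retinyl esters (-1.35, adjusted p = 0.0186), Adh1 (-1.27, adjusted p = 0.0135), Nrip1 (-1.18, adjusted p = 0.00242) and Ncoa1 (-0.98, adjusted p = 0.00257). Without SR-3420 replicate 1, Lipe (0.267), Adh1 (0.187) and Ncoa1 (0.0569) were not called. Without TC+SR-3420 replicate 3, Lipe (0.0860) and Adh1 (0.0634) were not, and without TC+SR-3420 replicate 2 Lipe was not (0.0548), nor in a fit of only the compared groups (0.0706). Etomoxir against vehicle called 0 of the 39 in edgeR, beside 0.0156% of all genes higher and 0.00782% lower. DESeq2 called 0, beside 0.153% of all genes. An unadjusted p under 0.05 was found for 0 of the 39 and for 283 of the 12786 genes. Etomoxir added to SR-3420 called 0 of the 39 in edgeR, beside 0% of all genes higher and 0.00782% lower. DESeq2 called 2 of the 39, beside 0.750% of all genes. An unadjusted p under 0.05 was found for 10 of the 39 and for 1279 of the 12786 genes.

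The genes most like each member by Pearson correlation of log2 CPM over the 16 samples, out of 12785 others, are given as a description, since the samples share treatments and libraries. Rdh10 ran closest to Ephx1 (r = 0.974), Aox1 (r = 0.973) and Pigv (r = 0.972), so that the oxidase gene Aox1 of the same pathway was among its nearest. Aldh1a7 ran with Enpp5 (r = 0.989), Lias (r = 0.987) and Prdx3 (r = 0.987), and Aldh1a1 with Kntc1 (r = 0.977), Wdhd1 (r = 0.976) and AW551984 (r = 0.975). Dhrs3 was nearest to Kcnk3 (r = 0.963), Hps4 (r = 0.953) and Slc12a7 (r = 0.947), Rbp4 to Mrap (r = 0.946) and Gm6484 (r = 0.897) and Rara to Foxo3 (r = 0.943), Kdm4b (r = 0.941) and Soga1 (r = 0.925). Cyp26b1 was nearest to Pde1b (r = 0.881), Elmsan1 (r = 0.877) and Zxdc (r = 0.877), Rarg to Zc3hav1 (r = 0.854), Sf3b2 (r = 0.838) and Pole (r = 0.835) and Rarb, at its low counts, to 2610020H08Rik (r = 0.843), Lyrm1 (r = 0.824) and Tmem241 (r = 0.810). Among the members themselves the highest correlation was that of Rdh10 with Aldh1a7 (r = 0.899), and the lowest were those of Rdh10 with Aldh1a1 (-0.795) and Cyp26b1 with Aldh1a7 (-0.793).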

How the data were processed

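RNA-seq counts of 16 samples were used. The authors aligned reads with STAR 2.4.2a to mm9, kept 1 read per position and length with HOMER and deposited whole-number counts of reads per gene from iRNA-seq, with a counted length (countLength) that was used for levels per kilobase. Strand use was not stated. The dose of SR-3420 is that of the labels, and the study's text gives a higher one. Samples were grouped by their labels, and 0 columns were left unmapped. With R 4.3.3, edgeR 4.0.16 (limma 3.58.1) fitted 1 quasi-likelihood model over the 6 groups after TMM and filterByExpr, without covariates, and p values were adjusted by Benjamini-Hochberg over 12786 genes. A gene was called at an adjusted p under 0.05 with no minimum fold, and intervals are 95%. The code was tested on simulated data. No pair of replicates was a repeated library, as the 14 pairs differed by 4.37 to 156 times counting noise (chi-square per degree of freedom). p values measure the spread between these samples only. Alternatives were the size factors of DESeq2, the Wald test of DESeq2 1.42.0, no filter, at least 10 counts in every sample, the replicate number as a block, a fit of only the compared groups, and each sample left out. Named genes are the 9 members, the RXRs, at most 6 called pathway genes with the greatest change per comparison, and the 3 genes most correlated with each member, of which 1 is not reported here. Ffar4, and Rdh11 for triacsin C added to SR-3420, are outside this rule. Members, lists and comparisons were chosen with earlier results of these data known. Promoters are those of RefSeq, GRCm38.p6, and upstream bases were read from the mm9 genome. Python 3.11.15 and matplotlib 3.10.9 made the figures.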

Additional observations from a re-analysis of the deposited data

Results flagged for a closer look

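Of the 9 members and the 39 other retinoid genes tested, 3 genes had a response to SR-3420 that differed between backgrounds by the interaction test of edgeR. Of all genes, this test called 1.24% higher and 1.27% lower for triacsin C minus no inhibitor, 0% in either direction for etomoxir minus no inhibitor, and 1.52% higher and 0.774% lower for triacsin C minus etomoxir. The response of Rxrg under triacsin C was -1.49 on the log2 scale relative to that without an inhibitor (adjusted p = 0.0406). In 9 of the 10 fits without 1 sample this call was lost, with an adjusted p up to 0.209 without Vehicle replicate 3 and 0.205 without SR-3420 replicate 1, and it was lost without the filter on low counts (0.0641).

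Ncoa2 had a response under triacsin C that was 1.49 above that without an inhibitor (adjusted p = 0.00144) and 1.57 above that under etomoxir (adjusted p = 0.000297). It held 96.4 and 91.2 CPM in Vehicle and 60.4 and 56.1 in SR-3420, 23.3, 19.0 and 22.0 in TC and 38.1, 37.9 and 36.1 in TC+SR-3420, and 88.9, 81.7 and 82.9 in ETO and 51.7, 47.5 and 49.8 in ETO+SR-3420. SR-3420 thus went with a higher level from the low base under triacsin C and with a lower level in the other backgrounds. Both calls held in each fit without 1 sample (adjusted p 0.00379 to 0.0145 and 0.00105 to 0.00257).

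Ncoa1 had a response under triacsin C that was 1.02 above that without an inhibitor (adjusted p = 0.0212) and 1.20 above that under etomoxir (adjusted p = 0.00558). The first was lost in 7 of the 10 fits without 1 sample, among them those without Vehicle replicate 3 (0.111) and SR-3420 replicate 1 (0.0731), and the other held in 12 of 12 (0.00124 to 0.0221).

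The response of Ffar4, the neighbour of Rbp4, under triacsin C was -3.99 (adjusted p = 0.00240) relative to that without an inhibitor and -2.62 (adjusted p = 0.00790) relative to that under etomoxir. Both calls held in each fit without 1 sample (0.00611 to 0.0259 and 0.00113 to 0.0260).

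No group had 4 or more samples, so that single samples were not tested for standing apart.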

How the results depend on the processing

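The 9 members were called in unequal numbers under the alternatives. DESeq2, the fits of only the compared groups and those without 1 sample also changed the genes tested. For SR-3420 against vehicle, 3 members were called, and 1 without the filter on low counts, 0 in a fit of only the compared groups and 1 in each fit without 1 sample (range 1 to 1). The response under triacsin C called 6 members and 3 to 6 without 1 sample, and that under etomoxir 5 members, 4 to 5 without 1 sample, 4 without the filter, 3 in a fit of only the compared groups and 7 with the block. Triacsin C added to SR-3420 called 0 members, 4 with DESeq2, 1 without the filter and 0 to 1 without 1 sample. Etomoxir added to SR-3420 called 0 members and 1 with DESeq2. The difference between the responses under triacsin C and without an inhibitor called 0 members, 1 with DESeq2, 1 in the fit of only the compared groups and 0 to 1 without 1 sample. The cause of these shifts was not tested. A group left with 1 sample was assumed to vary like the others.

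With the replicate number as a block, the response under etomoxir gained Rara and Rarb, where the block called 45.2% of all genes. Triacsin C against vehicle called 2 members (Dhrs3 and Rara), triacsin C added to SR-3420 called 4 (Cyp26b1, Dhrs3, Rbp4 and Rara), etomoxir added to SR-3420 called 2 (Rbp4 and Rara) and the difference between triacsin C and no inhibitor 2 (Cyp26b1 and Rarg). In these 4 comparisons the block called 24%, 23.5%, 14.4% and 13.1% of all genes. The mean correlation over genes of the deviations of samples with the same number was 0.41 in 35 pairs, against -0.20 in 71 other pairs. It was not uniform, as it ran from -0.29 to 0.83, was above 0.1 in 27 of the 35, and 10 of the 16 samples agreed best with their own number. As the labels do not state what the numbers share, the block was kept as an alternative.

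The counts of all genes called moved as well. SR-3420 against vehicle called 964 genes, 700 without the filter, 1584 with DESeq2, 2438 with the block and 46 in only the compared groups. Under etomoxir 3234 genes were called, 5776 with the block and 1205 in only the compared groups, and under triacsin C 4722, 7185 with the block and 5603 in only the compared groups. Without 1 sample these responses called 306 to 504, 1989 to 3198 and 3506 to 4056 genes. Of the log2 fold changes of members under an alternative, 1037 kept their direction and side of the threshold, 26 lost a call, 22 gained one, 51 of uncalled genes changed sign and 0 called ones did. For the other genes named these were 758, 68, 9, 33 and 0. Rarb had 2 to 21 counts in a sample, and at least 10 counts in every sample removed it.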
